A study of Homo sapiens with 12 samples.

Results

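The chromatin regions described here are those open in every library of the experiment, and the question put to them is whether silencing of HCP5 moved them the same way in 2 cancer cell lines or differently. ATAC-seq, in which a transposase inserts sequencing adapters into accessible DNA, had been carried out on KYSE150 and KYSE510, both established lines of human oesophageal squamous cell carcinoma grown in RPMI-1640 with serum. In each line 3 libraries came from control cells and 3 from cells after silencing of HCP5, giving 12 libraries in 4 groups. The sources used here do not say how HCP5 was silenced, whether 1 clone was used, or what the control cells received. Peaks on chromosomes 1 to 22 with a Pileup of at least 3, the peak height in the deposited lists, were merged over all libraries where they overlapped by 1 bp or more. This gave 283481 merged regions, of which 20785 (7.33%) held a peak in all 12 libraries and were kept. Within each library the kept regions were ranked by their maximum Pileup, and the ranks were turned into normal scores, so that 1 unit is 1 SD of a library's ranks. The change in a line is the mean score of its silenced libraries minus that of its controls. The shared change is the mean of both lines' changes, and the difference between lines is what remains when the KYSE150 change is subtracted from the KYSE510 change.

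A region was called promoter when it lay within 1 kb of the start of a protein-coding gene and distal otherwise. There were 7116 promoter regions (34.2%), of which 6538 contained the gene start, and 13669 distal regions at a median of 35.1 kb from the nearest start. For 1040 promoter regions the strand of the gene was not in the table used, so either end of the gene counted as its start.

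Promoters are the stretches around gene starts where transcription begins, and many of them are accessible in most cell types. Distal open regions include enhancers, which bind transcription factors and differ far more between cell types. HCP5 is a long non-coding RNA transcribed from within the major histocompatibility complex, and the title of the study ties it to apoptosis and to MYC transcription through UTP3, a nucleolar protein of the small subunit processome that matures ribosomal RNA.

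The promoter windows of 4 genes are printed because their regions stand for the patterns that follow. AFF4 and CDC14B were among the promoter regions with the smallest p for a shared change, AFF4 higher and CDC14B lower after silencing in both lines, whereas PRIM1 and MDN1 had values of opposite sign in the lines. The sequences are from RefSeq on GRCh38.p14, 250 bases before to 50 bases after the gene start, 5′ to 3′ on the strand of the gene. Capitals mark the letters of motifs, each searched on both strands. The E-box was searched as CACGTG, which reads the same on both strands and was counted 1 time. The binding site of SP/KLF factors was searched as GGGCGG. The site of ETS factors was searched as CCGGAAG, and the CCAAT box by its own letters. No match overlapped another in these windows.
AFF4, chr5:132963585-132963884, minus strand: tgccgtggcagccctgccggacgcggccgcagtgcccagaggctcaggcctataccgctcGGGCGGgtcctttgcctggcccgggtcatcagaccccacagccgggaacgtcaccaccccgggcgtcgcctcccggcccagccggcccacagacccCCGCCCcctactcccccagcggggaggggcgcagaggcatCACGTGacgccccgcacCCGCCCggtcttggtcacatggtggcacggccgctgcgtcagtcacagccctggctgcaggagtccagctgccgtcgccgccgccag
CDC14B, chr9:96566927-96567226, minus strand: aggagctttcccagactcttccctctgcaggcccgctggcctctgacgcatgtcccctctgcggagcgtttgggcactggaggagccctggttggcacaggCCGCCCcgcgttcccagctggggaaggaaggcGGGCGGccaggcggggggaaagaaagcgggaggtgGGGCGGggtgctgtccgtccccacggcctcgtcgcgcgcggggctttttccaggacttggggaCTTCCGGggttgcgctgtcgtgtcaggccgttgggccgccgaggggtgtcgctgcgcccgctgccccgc
PRIM1, chr12:56752274-56752573, minus strand: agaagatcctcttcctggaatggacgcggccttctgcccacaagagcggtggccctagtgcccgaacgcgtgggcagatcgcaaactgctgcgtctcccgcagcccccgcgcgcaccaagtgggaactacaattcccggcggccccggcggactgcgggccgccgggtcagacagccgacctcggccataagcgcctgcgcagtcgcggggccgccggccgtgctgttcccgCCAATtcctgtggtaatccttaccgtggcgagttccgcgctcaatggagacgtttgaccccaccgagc
MDN1, chr6:89819745-89820044, minus strand: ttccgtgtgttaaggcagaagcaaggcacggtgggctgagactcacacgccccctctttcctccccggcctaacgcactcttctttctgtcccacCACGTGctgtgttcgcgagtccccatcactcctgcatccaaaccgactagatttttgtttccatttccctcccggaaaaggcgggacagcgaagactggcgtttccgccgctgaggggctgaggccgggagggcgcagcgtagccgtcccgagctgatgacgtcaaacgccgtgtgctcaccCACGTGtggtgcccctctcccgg
The AFF4 window held 1 E-box and 3 SP/KLF matches, the CDC14B window 1 ETS and 3 SP/KLF matches, the PRIM1 window 1 CCAAT match and the MDN1 window 2 E-boxes. Of 21155 promoter windows of this length in the table, 8.25% held the E-box letters, 56.6% the SP/KLF letters, 12.9% the ETS letters and 34.4% the CCAAT letters. Such a match describes the letters only.

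Markers of the labelled cell type were partly open. Of 12 squamous epithelial marker genes, 6 had a peak near their start in all 12 libraries, among them KRT5 and the desmosomal cadherins DSG3 and DSC3. No library had a peak at the start listed for TP63, and SOX2 had one in all 6 KYSE510 libraries and in no KYSE150 library. Of 33 haematopoietic, endothelial, fibroblast, neural and hepatocyte markers, 19 had no peak in any library and 14 had one in at least 1 library. The marker with a peak in all 12 was SPI1, whose strand is not in the table and for which either end counted. APOA1 of hepatocytes and SYP of neurons had a peak in 10 libraries, as many as the squamous markers KRT6A and PERP, and the fibroblast gene COL1A1 and the monocyte gene CD14 in 9. APOA1, SYP, COL1A1 and CD14 each had one in all 6 KYSE510 libraries. The strand of APOA1, COL1A1 and KRT6A is not in the table either, so their peaks may lie at either end. Chromatin at the HCP5 start cannot check the silencing of its RNA. Peak heights there were 0, 0 and 3 in KYSE150 controls, 0, 3 and 4 in silenced KYSE150, 16, 17 and 8 in KYSE510 controls and 23, 9 and 20 in silenced KYSE510, where 0 means no peak of the minimum height. The groups overlapped in both lines, and the HCP5 start was not among the kept regions.

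The depth of the libraries is not given in the sources used here, so peak height is the guide to precision. The median height over kept regions was 9 to 12 in the KYSE150 libraries and 13 to 16 in the KYSE510 libraries, and silenced KYSE150 replicate 3 was the lowest, with 56.4% of its regions under 10. With heights this low, the spread between replicates was wide. The deposited lists also differed between lines. KYSE150 libraries had 526014 to 603958 autosomal peaks, of which 51492 to 61585 had a Pileup of at least 3. KYSE510 libraries had 112842 to 132372, of which 101552 to 119939 did. How far this enters the share of the line below was not tested. The line accounted for 47.2% of the sum of squares of the scores, replicates for 41.2%, the shared effect of silencing for 6.30% and the part of it that differed by line for 5.34%. Per degree of freedom, the shared effect was 1.22 times the replicate variance and the difference between lines 1.04 times. For the shared effect this ratio was 1.08 at promoters and 1.28 at distal regions.

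One distal region passed the test for a shared change, with higher values after silencing in both lines. It lies at chr14:98886901-98887710 (GRCh38), 384 kb from the nearest protein-coding gene start, that of BCL11B, which encodes a zinc finger transcription factor of T-cell and skin development. Its heights were 3, 3 and 5 in KYSE150 controls, 10, 15 and 9 in silenced KYSE150, 14, 11 and 11 in KYSE510 controls and 25, 28 and 24 in silenced KYSE510. Silenced and control libraries did not overlap in either line. This region and those named by p below were picked from these same values, so a lack of overlap adds no support. After division by the library median the height was 3.54-fold higher in KYSE150 and 2.1-fold higher in KYSE510. The shared change was 1.61 ± 0.20 units (SE, n = 12 libraries; limma, Benjamini-Hochberg adjusted p = 0.0135), and the difference between lines was -0.95 ± 0.40 (limma adjusted p = 0.836). In bulk ATAC-seq, more cells with the site open and more insertions per open cell cannot be told apart. Adjusted p was 0.0530 to 0.0793 in each of 6 fits that left out 1 library, namely KYSE150 control 1 and silenced 2, and KYSE510 controls 1, 2 and 3 and silenced 2. With replicate numbers added to the limma fit as a block, adjusted p was 0.199. The labels do not say that equal numbers mark paired samples, although each library correlated best with its own number. Adjusted p was 0.0947 with fold enrichment ranked in place of Pileup, and a minimum Pileup of 5 removes the region because of its low KYSE150 controls. For the change within KYSE510 alone, limma adjusted p was 0.385.

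This was the only region with an adjusted p under 0.05 for the shared change (0.00481% of 20785). At an unadjusted p under 0.05, 861 regions were higher (4.14%) and 675 lower (3.25%) after silencing, 7.39% together. No region passed for the difference between lines with limma (smallest adjusted p 0.711), where 594 were higher in KYSE510 relative to KYSE150 (2.86%) and 578 lower (2.78%) at an unadjusted p under 0.05, 5.64% together. No region passed for the difference under any alternative that was run either. Within lines, limma called 1 region in KYSE150 (0.00481%), again the one near BCL11B (adjusted p = 0.0404), and none in KYSE510. At an unadjusted p under 0.05 there were 772 higher (3.71%) and 711 lower (3.42%) in KYSE150, 7.13% together. In KYSE510 there were 748 higher (3.6%) and 529 lower (2.55%), 6.14% together.

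Replicate scatter was wider at low heights. The median residual SD of the score was 0.51 in the lowest of 5 equal groups of regions by mean percentile and 0.28 in the highest. The count of calls depended on limma's variance options. The trend option lets the prior variance follow the mean score, and the robust option limits the weight of regions with outlying variances. With both, 9 of 20785 regions passed for the shared change, all distal and all higher after silencing, and none for the difference (smallest adjusted p 0.164). With the trend option alone, added after seeing the data, 6 of those 9 passed, near BCL11B, SLC25A48, ESRRB, GNA13, SMYD3 and MCC, and with the robust option alone only the region near BCL11B did. For the change within KYSE510, 16 of 20785 regions were called higher with both options, 1 of them a promoter. For the change within KYSE150, 1 was called higher and 1 lower. Since no region passed for the difference, these counts do not show a response particular to 1 line.

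**Figure D1:**
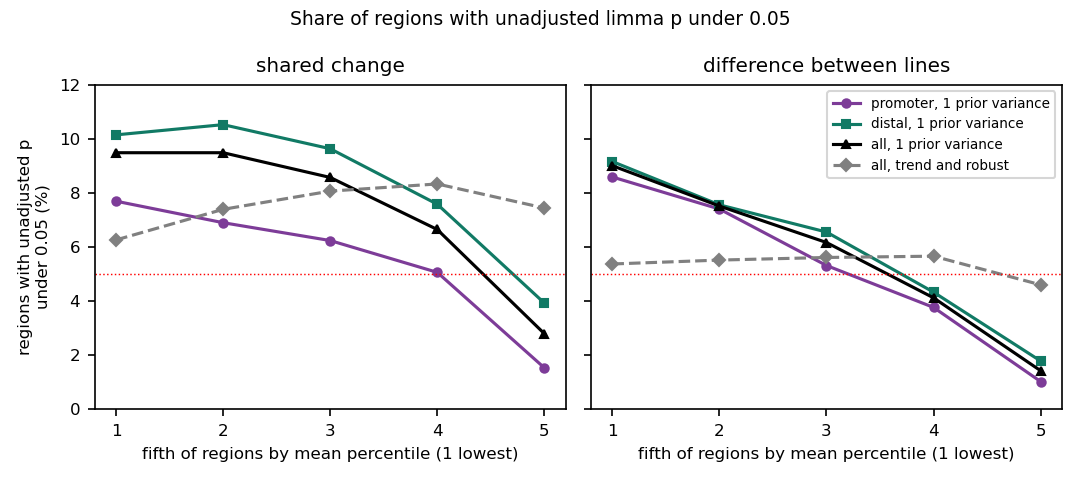
Share of regions with an unadjusted limma p under 0.05 (y axis, %) in 5 equal groups of regions by mean percentile over the 12 libraries (x axis, 1 lowest), for the shared change (left) and the difference between lines (right). Solid lines are the fit with 1 prior variance, by class, the grey dashed line is the fit with trend and robust options for all regions, and the red dotted line marks 5%. For the shared change the solid line for all regions runs from 9.48% in the lowest group to 2.79% in the highest, while the dashed line stays between 6.25 and 8.32%.

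The other 8 regions called with the trend and robust options were the distal regions nearest to SLC25A48, ESRRB, GNA13, SMYD3, MCC, GPR15LG, DAPL1 and CD58, 3 of which are also named by rank of p below. They lay 5.15 to 174 kb from the start of the nearest gene. The region 174 kb from ESRRB, the gene of an orphan nuclear receptor, had heights of 24, 35 and 32 in KYSE150 controls, 50, 48 and 42 in silenced KYSE150, 16, 22 and 28 in KYSE510 controls and 26, 53 and 46 in silenced KYSE510. It overlapped between groups in KYSE510 heights only, through silenced replicate 1. Its change was 0.95 in KYSE150 and 0.92 in KYSE510 (limma with trend and robust options, adjusted p = 0.00451; adjusted p = 0.335 with 1 prior variance). The region 33.1 kb from CD58, which encodes an adhesion ligand of T cells, had heights of 10, 19 and 27 in KYSE150 controls, 31, 27 and 31 in silenced KYSE150, 26, 22 and 21 in KYSE510 controls and 35, 35 and 33 in silenced KYSE510. KYSE510 groups were apart there, and KYSE150 groups met at a height of 27.

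Among distal regions the next 3 by p for a higher shared change were near GNA13, SLC25A48 and MCC. The region 7.48 kb from GNA13, the gene of a G protein alpha subunit that signals to RhoA, had heights of 4, 5 and 9 in KYSE150 controls, 12, 13 and 9 in silenced KYSE150, 5, 4 and 5 in KYSE510 controls and 11, 14 and 17 in silenced KYSE510. Its ranks did not overlap between groups in either line, although the highest KYSE150 control and the lowest silenced library were both at 9. The shared change was 1.46 ± 0.22 (limma adjusted p = 0.0511). The region 71.9 kb from SLC25A48, a mitochondrial carrier gene, had heights of 17, 19 and 20 in KYSE150 controls, 40, 33 and 22 in silenced KYSE150, 6, 4 and 4 in KYSE510 controls and 9, 15 and 16 in silenced KYSE510. The groups did not overlap in either line (shared change 1.28 ± 0.20, limma adjusted p = 0.0618). The region 50.2 kb from MCC, a gene named for its mutation in colorectal cancer, had heights of 13, 15 and 13 in KYSE150 controls, 20, 21 and 19 in silenced KYSE150, 10, 7 and 7 in KYSE510 controls and 17, 24 and 19 in silenced KYSE510. Silenced libraries were again all above controls (shared change 1.09 ± 0.18, limma adjusted p = 0.0659). All 3 passed under some alternatives, GNA13 with the trend option, alone or with the robust one, with log2 heights, with an FDR threshold and without KYSE150 control 3.

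In the direction of lower accessibility no region passed. The distal region with the smallest p lay 44.3 kb from CRADD, the gene of an adaptor with a death domain that takes part in caspase-2 activation. Its heights were 6, 9 and 6 in KYSE150 controls, 4, 3 and 3 in silenced KYSE150, 10, 9 and 9 in KYSE510 controls and 4, 4 and 5 in silenced KYSE510. Every silenced library was below every control of its line (shared change -1.14 ± 0.19, limma adjusted p = 0.0661). The region 31.8 kb from GLDN was likewise lower without overlap in both lines, at 8, 12 and 15 against 4, 5 and 5 in KYSE150 and 11, 8 and 10 against 5, 6 and 4 in KYSE510. The regions 23.4 kb from KIF13B, a kinesin gene, and 33.1 kb from OGDH, a subunit gene of the 2-oxoglutarate dehydrogenase of the citric acid cycle, ranked next, and their shared values came mostly from KYSE150. Near KIF13B the change was -2.00 in KYSE150 and -0.18 in KYSE510, and near OGDH it was -1.35 and -0.37.

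**Figure D2:**
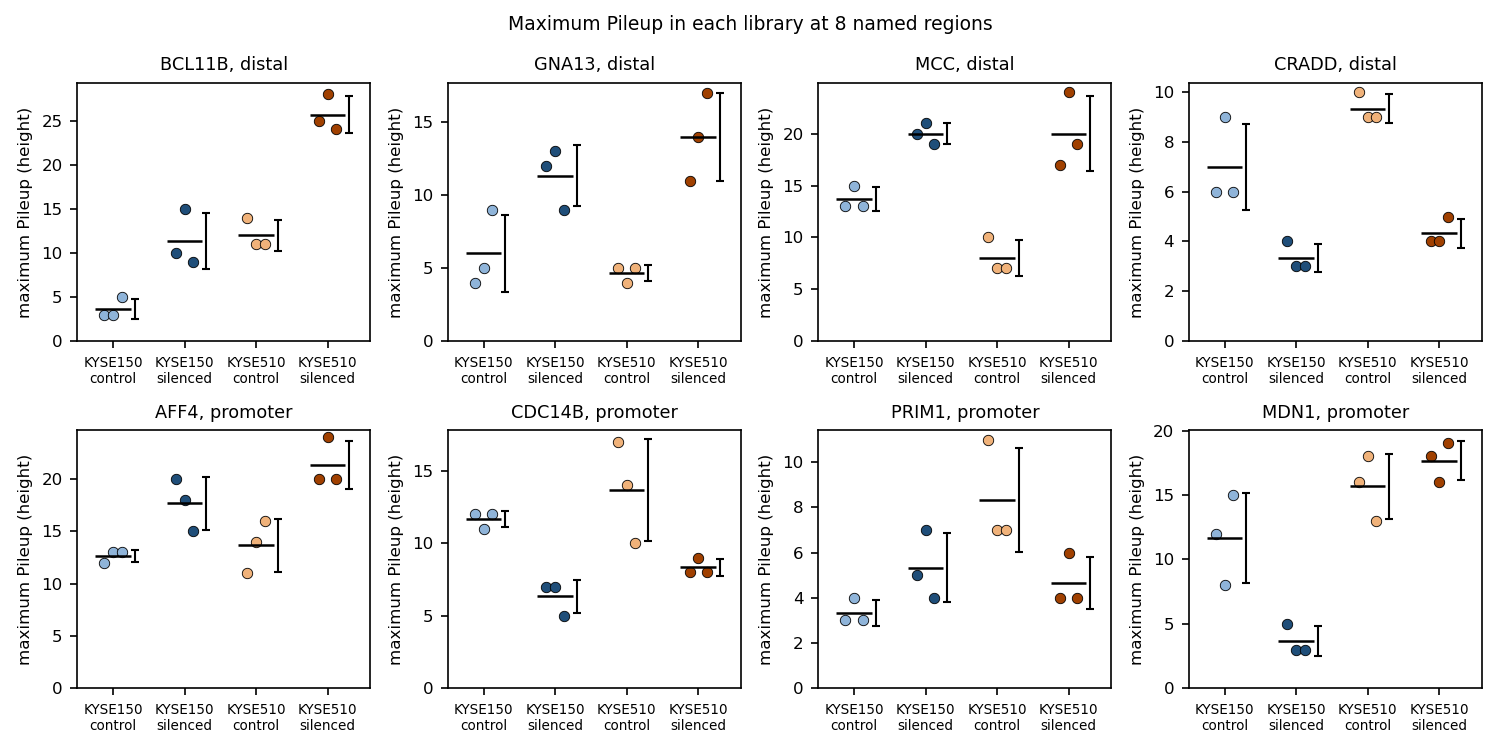
Maximum Pileup (y axis, peak height from 0) of each library in the 4 groups (x axis) at 8 named regions, with the group mean as a line and the SD (n = 3) as a bar beside it. At the region near BCL11B silenced libraries reach 9 to 15 in KYSE150 and 24 to 28 in KYSE510, above controls of 3 to 5 and 11 to 14, whereas the mean at PRIM1 is higher after silencing in KYSE150 and lower in KYSE510, and that at MDN1 the reverse.

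At promoters, no shared change passed the test (limma, smallest adjusted p 0.205). The promoter regions with the smallest p on the higher side were at IL21R, a cytokine receptor gene, KLK9, a kallikrein serine protease gene, AFF4, which encodes a scaffold of the super elongation complex of RNA polymerase, and DNAJC5, a co-chaperone gene. AFF4 had heights of 12, 13 and 13 in KYSE150 controls, 20, 18 and 15 in silenced KYSE150, 11, 14 and 16 in KYSE510 controls and 20, 24 and 20 in silenced KYSE510. All silenced libraries were above the controls of their line, by 1.57-fold and 1.49-fold after division by the library median (shared change 0.70 ± 0.18, limma adjusted p = 0.351). At IL21R and DNAJC5 the values came mostly from KYSE150, with controls at or near the minimum height. DNAJC5 had 3, 4 and 3 in KYSE150 controls. IL21R had 3, 3 and 3 in controls and 8, 9 and 6 in silenced KYSE150, and its change was 1.79 in KYSE150 and 0.25 in KYSE510.

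On the lower side the promoter regions were at CDC14B, a dual-specificity phosphatase gene, at the start shared by COA5 and UNC50, at WDR82, a subunit gene of the SET1 histone methyltransferase complex, and at SH3D19. CDC14B had heights of 12, 11 and 12 in KYSE150 controls, 7, 7 and 5 in silenced KYSE150, 17, 14 and 10 in KYSE510 controls and 8, 9 and 8 in silenced KYSE510. The groups did not overlap in either line, and the silenced height was 0.612 of the control height in KYSE150 and 0.601 in KYSE510 (shared change -0.74 ± 0.17, difference 0.02 ± 0.35, limma adjusted p = 0.308 for the shared change). SH3D19 was also lower without overlap in both lines, with 8, 9 and 10 against 5, 6 and 4 in KYSE150 and 10, 8 and 8 against 5, 6 and 7 in KYSE510. COA5 and UNC50 share an open region whose silenced KYSE150 heights were all 3, the minimum.

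The difference between lines was sought in the same way. At promoters the smallest p on the side of KYSE510 were at VNN2, a pantetheinase gene, MDN1, whose protein is an ATPase of large ribosomal subunit assembly, LAPTM5 and the chromatin remodeller gene CHD7. MDN1 had heights of 12, 8 and 15 in KYSE150 controls and 5, 3 and 3 in silenced KYSE150, against 16, 18 and 13 in KYSE510 controls and 18, 16 and 19 in silenced KYSE510. Only the KYSE150 groups were apart (change -1.69 in KYSE150 and 0.18 in KYSE510, difference 1.88 ± 0.43, limma adjusted p = 0.73). On the other side were PRIM1, the catalytic primase gene, CENPE, a kinetochore motor gene, BAG6, a chaperone gene, and TBC1D19. PRIM1 had heights of 3, 4 and 3 in KYSE150 controls and 5, 7 and 4 in silenced KYSE150, against 11, 7 and 7 in KYSE510 controls and 4, 6 and 4 in silenced KYSE510. In ranks the groups were apart in both lines and in opposite directions, with a change of 0.99 in KYSE150 and -0.92 in KYSE510 (difference -1.91 ± 0.42, limma adjusted p = 0.711). CENPE had the same signs, with 4, 5 and 4 in controls against 5, 6 and 5 in KYSE150 and 8, 8 and 9 against 4, 5 and 4 in KYSE510.

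Among distal regions the values for a difference were larger, and again none passed. The region 56.2 kb from GPC6, a glypican gene, had heights of 25, 30 and 25 in KYSE150 controls and 11, 12 and 9 in silenced KYSE150, against 4, 11 and 6 in KYSE510 controls and 12, 17 and 16 in silenced KYSE510. Both lines were without overlap, at 0.452 and 2.01 of the control height (difference 2.39 ± 0.49, limma adjusted p = 0.711). The regions near DOK6, GALNT2 and MARCKS had the same signs, lower in KYSE150 and higher in KYSE510. The reverse was seen 136 kb from ZHX2, a transcriptional repressor gene, where heights were 4, 3 and 4 in controls against 9, 7 and 7 in KYSE150 and 8, 6 and 8 against 5, 5 and 4 in KYSE510 (difference -2.19 ± 0.38, limma adjusted p = 0.711). Regions near MAP4K3, SGCA and CEACAM5, the last the gene of carcinoembryonic antigen, also had higher ranks after silencing in KYSE150 and lower ranks in KYSE510.

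Over all kept regions the changes in the lines had little correlation. Pearson's r between the change in KYSE150 and that in KYSE510 was 0.08 over 20785 regions, 0.02 at promoters and 0.10 at distal regions, as a description across regions that share libraries. The mean square of the score was 0.239 for the shared effect and 0.203 for the effect that differed by line, against 0.195 between replicates. With replicate spread of this size, a low r does not show that the lines responded differently. The sign was the same in 52.3% of regions, in 51.0% of promoters and in 53.0% of distal regions. Promoters with lower ranks in both lines (2283) outnumbered those with higher ranks in both (1348), while at distal regions 3373 were lower and 3875 higher in both.

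**Figure D3:**
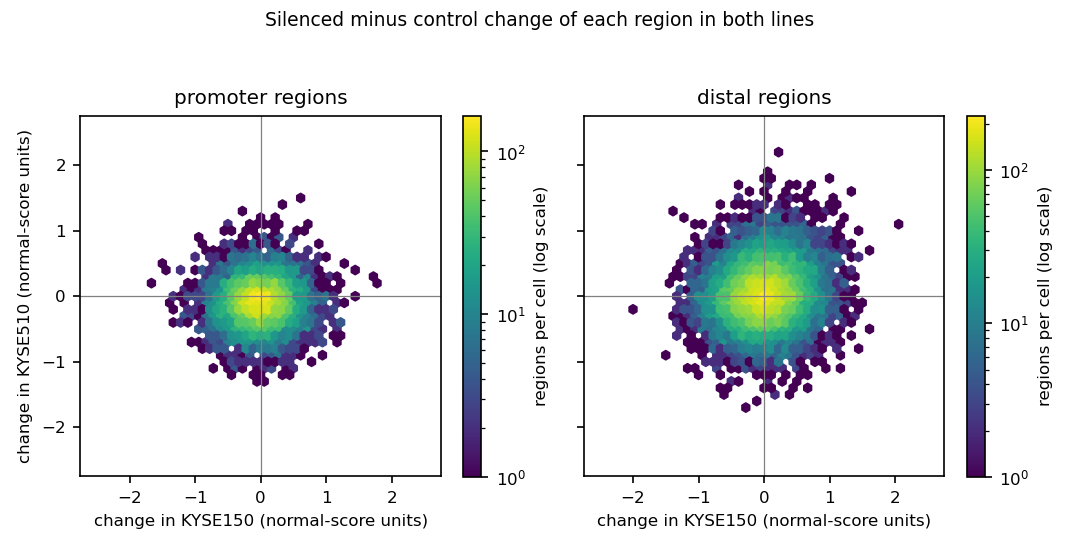
Silenced minus control change of each region in KYSE150 (x axis) and KYSE510 (y axis), in normal-score units, for 7116 promoter regions (left) and 13669 distal regions (right), where colour gives the number of regions per hexagon on a log scale. Both clouds are nearly round, with r of 0.02 and 0.10. The highest KYSE150 change in the distal panel, 2.09, is that of the region near BCL11B.

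Silenced and control libraries were fully apart in ranks at 2133 regions in KYSE150 (10.3%) and at 2631 in KYSE510 (12.7%). They were apart in both lines and in the same direction at 205 regions (0.986%) and in opposite directions at 104 (0.5%). The 205 regions were 122 higher (0.587%) and 83 lower (0.399%) in both lines. Of the 122, 109 were distal and 13 promoter (10.7% promoter), and of the 83, 51 were distal and 32 promoter (38.6% promoter), beside 34.2% of all kept regions. Of the 55 regions higher in KYSE150 and lower in KYSE510 (0.265%), 28 were promoters, and of the 49 with the reverse pattern (0.236%) 9 were. Ranks over both classes depend on the balance between promoters and distal regions. When ranks were taken within each class, an alternative chosen after seeing the data, 20 promoters were higher and 19 lower in both lines, and 101 distal regions were higher and 64 lower. Such ranks centre each class in every library by construction, so an even count there is no result about promoters.

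The unadjusted shares by class come from the same ranks of regions that share libraries, so they are not separate evidence of a class difference. The test by library follows them. For the shared change 5.02% of promoters (103 higher and 254 lower) and 8.63% of distal regions (758 higher and 421 lower) had a limma unadjusted p under 0.05. For the difference between lines these shares were 4.65 and 6.15%. With ranks within class they were 4.90 and 8.71% for the shared change, with 188 promoters higher and 161 lower, and 661 distal regions higher and 530 lower. With trend and robust options they were 5.20 and 8.68%.

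The balance between promoters and distal regions was then compared library by library, as the mean percentile rank of promoters minus that of distal regions. It was 11.2, 4.03 and 7.39 points in KYSE150 controls and 9.29, 6.39 and 6.15 in silenced KYSE150. In KYSE510 it was 13.4, 8.07 and 9.89 in controls and 8.70, 3.50 and 7.95 in silenced libraries. Promoters ranked above distal regions in all 12 libraries, and silenced and control libraries overlapped in both lines. The change was -0.26 points in KYSE150 (two-sided exact permutation p = 1) and -3.73 in KYSE510 (exact permutation p = 0.2, where 0.1 is the smallest that 3 against 3 can give). The shared change was -2.00 points (exact permutation p = 0.245) and the difference between lines -3.47 points (exact permutation p = 0.33), where the smallest possible p over 400 relabellings is 0.005. The KYSE150 change had the opposite sign without control 1 (1.56 points), silenced 2 (0.18) or silenced 3 (0.30).

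**Figure D4:**
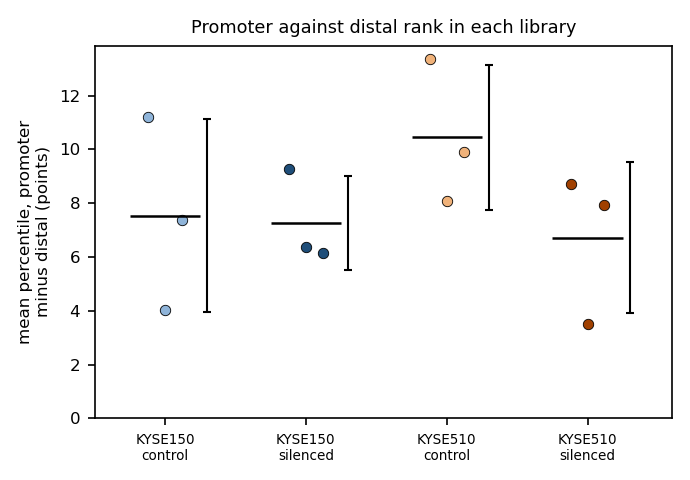
Mean percentile of promoter regions minus that of distal regions (y axis, percentile points from 0) in each library of the 4 groups (x axis), with the group mean as a line and the SD (n = 3) as a bar. Means are 7.54 and 7.28 points for control and silenced KYSE150 and 10.4 and 6.72 points for KYSE510, and the groups overlap in both lines.

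The change of the mean percentile was also taken in 5 classes of distance from the gene start. It was -0.23 points in KYSE150 and -2.67 in KYSE510 for regions that contain a gene start, and 0.42 and 0.06 for the other regions within 1 kb of one. At 1 to 10 kb it was 0.69 and 0.83 points, at 10 to 50 kb 0.48 and 1.2, and over 50 kb away -0.60 and 1.58. The shared change was thus negative where the gene start lay inside the region (-1.45 points) and positive in the other 4 classes (0.24 to 0.84). The lines had opposite signs over 50 kb away. The mean percentile over all kept regions is fixed in every library by construction. A lower mean in a large class therefore requires a higher mean elsewhere, and the opposite signs are not separate results. Across the classes the smallest Benjamini-Hochberg adjusted exact permutation p was 0.35 for the shared change and 0.775 for the difference. Within promoters, no difference by GC content or by letters in the window passed the test. The shared change of promoters above the median GC content relative to those below was 0.12 points (exact permutation p = 0.855). The 8 motifs searched, among them the E-box bound by MYC and the site TGANTCA bound by AP-1, gave adjusted exact permutation p of at least 0.693 for the shared change and 0.728 for the difference. Promoters with an E-box (756 of 6076 with a sequence) were 0.50 points higher relative to the other promoters after silencing in KYSE150 and 0.05 points in KYSE510.

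By chromosome, the change of the mean percentile had opposite signs in the lines on 14 of 22 chromosomes, and no chromosome passed the adjusted test. The largest differences were -3.84 points on chromosome 22, -3.64 on chromosome 19 and -3.11 on chromosome 17. On chromosome 19, which has the highest share of promoters (57.3%), the change was 2.15 points in KYSE150 and -1.49 in KYSE510. For the difference 4 chromosomes (3, 8, 20 and 22) and for the shared change 3 (7, 10 and 11) had an exact permutation p under 0.05, with a smallest adjusted p of 0.22 in each case. Across the 22 chromosomes, as a description, the share of promoters had r = 0.70 with the change in KYSE150 and -0.51 with that in KYSE510. Silenced KYSE150 replicate 1 weighed heavily in these values. Silenced KYSE150 libraries were at 50.5, 48.1 and 48.0 on chromosome 16 (controls 48.4, 48.0 and 48.1). On chromosome 22 they were at 45.8, 41.7 and 42.3 (controls 42.5, 41.6 and 41.9). On chromosome 17 they were at 51.3, 47.4 and 49.8 (controls 48.0, 47.3 and 47.4). In KYSE510, control replicate 1 weighed heavily on chromosomes 17 and 19. KYSE510 controls were at 44.7, 41.6 and 41.1 on chromosome 17 (silenced 42.1, 41.1 and 40.8). On chromosome 19 they were at 57.5, 52.5 and 53.2 (silenced 55.8, 50.5 and 52.5). On chromosome 22 the KYSE510 groups were apart, with controls at 49.7, 46.4 and 45.8 and silenced libraries at 45.3, 44.7 and 44.2.

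**Figure D5:**
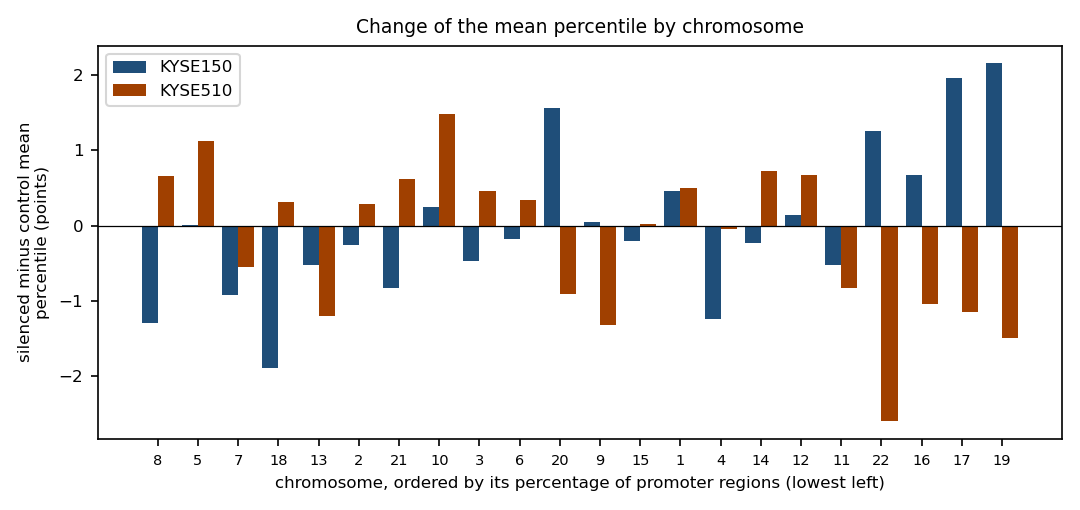
Silenced minus control change of the mean percentile (y axis, percentile points) by chromosome (x axis, ordered by the percentage of promoters among its regions, lowest left) in KYSE150 (blue) and KYSE510 (brown). At the right, chromosomes 22, 16, 17 and 19 have bars above 0 in KYSE150 and below 0 in KYSE510. The KYSE150 bars of chromosomes 16 and 22 rest on silenced replicate 1, and the KYSE510 bars of chromosomes 17 and 19 on control replicate 1.

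The genes of the study's own axis did not pass. UTP3 had heights of 16, 17 and 14 in KYSE150 controls, 10, 13 and 23 in silenced KYSE150, 24, 12 and 18 in KYSE510 controls and 18, 24 and 25 in silenced KYSE510. The groups overlapped in both lines (shared change 0.25 ± 0.26, limma adjusted p = 0.885). The region at one end of MYC had heights of 12, 14 and 11 in KYSE150 controls, 10, 13 and 11 in silenced KYSE150, 177, 108 and 122 in KYSE510 controls and 131, 124 and 149 in silenced KYSE510. The lines differed there by far more than the groups did (shared change 0.06 ± 0.17, limma adjusted p = 0.974). The region at the other end of MYC had heights of 8, 18 and 15 in KYSE150 controls, 17, 12 and 15 in silenced KYSE150, 83, 56 and 82 in KYSE510 controls and 109, 113 and 104 in silenced KYSE510. The groups were apart in KYSE510 only, and the change was 0.41 in KYSE150 and 0.42 in KYSE510 (shared change 0.42 ± 0.22, limma adjusted p = 0.703). Its difference between lines was 0.01 ± 0.44 (limma adjusted p = 0.999). The strand of MYC is not in the table used, so either end counted as its start. Both regions were therefore called promoter, although 1 of them may lie at the end of the gene. VAMP3 had a peak in 7 of 12 libraries and was not among the kept regions.

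Genes of 12 lists were counted at their promoter regions, beside all promoters, whose median was -0.05 for the shared change and -0.07 for the difference. No region of any list had an adjusted p under 0.05 with limma, as for promoters in all. At an unadjusted p under 0.05 the shared change had 103 promoters higher and 254 lower of 7116. By sign alone 2970 of the 7116 promoters were higher and 4146 lower, so 58.3% of all promoters were lower. Higher and lower in what follows give the sign of a value, and none of the list genes passed. A gene with several regions is counted at the one with the highest mean percentile. A list whose share of lower values is near that of all promoters gives no result about the list.

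Apoptosis genes, which comprise the BCL2 family, caspases and death receptors, had a kept region at 22 of 36, with 11 higher and 11 lower in shared change. CFLAR, an inhibitor of caspase-8, had 10, 6 and 11 in controls against 10, 6 and 4 in silenced KYSE150 and 11, 10 and 10 against 18, 15 and 17 in KYSE510. Only the KYSE510 groups were apart (difference 1.01 ± 0.46, limma adjusted p = 0.864). CASP6, an effector caspase gene, had 8, 3 and 3 against 5, 4 and 5 in KYSE150 and 8, 4 and 6 against 9, 7 and 10 in KYSE510, with overlap in both lines.

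Small subunit processome genes had a kept region at 30 of 40, with 11 higher and 19 lower (63.3%, beside 58.3% of all promoters). NOL11 had 9, 11 and 8 against 14, 12 and 13 in KYSE150 and 19, 11 and 8 against 13, 8 and 8 in KYSE510, apart in KYSE150 only (difference -1.14 ± 0.45, limma adjusted p = 0.836). NOP58, a core protein of box C/D ribonucleoproteins, had 6, 6 and 5 against 11, 8 and 5 in KYSE150 and 16, 8 and 8 against 14, 17 and 9 in KYSE510 (shared change 0.52 ± 0.24, limma adjusted p = 0.671). In the MYC network 9 of 13 genes had a kept region, with 4 higher and 5 lower. The largest shared value was that of the second MYC region given above (0.42), at which MYC was counted. That region may not be the MYC promoter, and the first MYC region had 0.06. The largest difference was at MNT, a MYC antagonist (0.55 ± 0.45, limma adjusted p = 0.953).

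Cytosolic ribosomal protein genes had the lowest median shared change of the lists with over 20 regions, -0.14, and a median difference of -0.22. With 1 library left out, their median shared change ranged from -0.138 to -0.0423, beside -0.05 for all promoters with every library. Of 51 with a kept region, out of 72 genes, 18 were higher and 33 lower (64.7%, beside 58.3% of all promoters), and at an unadjusted p under 0.05 there were 1 higher and 3 lower. The largest difference was at the start shared by RPL27A and TRIM66 (-1.67 ± 0.79, limma adjusted p = 0.884), where KYSE150 control replicate 1 had a height of 3 beside 16 and 14 in the other controls.

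In the NRF2 pathway, which protects cells from oxidative stress, 14 of 23 genes had a kept region and 13 had a negative shared value (92.9%, beside 58.3% of all promoters), with a median of -0.10, and no test of this count was made. The lowest was at TALDO1, a gene of the pentose phosphate pathway, with 5, 9 and 6 against 5, 3 and 4 in KYSE150 and 6, 10 and 6 against 6, 5 and 3 in KYSE510 (-0.72 ± 0.27, limma adjusted p = 0.57). Its groups touched or overlapped in both lines. The largest difference was at SRXN1, the sulfiredoxin gene (-0.72 ± 0.48, limma adjusted p = 0.938). Among 19 of 28 hypoxia and glycolysis genes 6 were higher and 13 lower (68.4%), with the largest values at HK1, a hexokinase gene (shared change -0.52 ± 0.31, limma adjusted p = 0.761), and P4HA1, a collagen prolyl hydroxylase gene (difference -0.98 ± 0.51, limma adjusted p = 0.893).

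FOS, an immediate early gene and AP-1 subunit, had the largest value of its list in both contrasts. Its heights were 10, 13 and 13 in KYSE150 controls and 6, 3 and 6 in silenced KYSE150, against 20, 14 and 14 in KYSE510 controls and 20, 16 and 13 in silenced KYSE510. The KYSE150 groups were apart and the KYSE510 groups overlapped (difference 1.28 ± 0.49, limma adjusted p = 0.836). Of 10 AP-1 genes with a kept region, out of 15, 3 were higher and 7 lower in shared change. Squamous lineage genes had a kept region at 9 of 24, with 3 higher and 6 lower. Their largest difference was at KRT5, a basal keratin gene (0.65 ± 0.49, limma adjusted p = 0.951).

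Interferon and antigen presentation genes had a kept region at 17 of 37, with 7 higher and 10 lower. HLA-E, which encodes a non-classical class I molecule, had 18, 23 and 15 against 21, 24 and 23 in KYSE150 and 27, 22 and 21 against 16, 18 and 12 in KYSE510, apart in KYSE510 only (difference -1.21 ± 0.39, limma adjusted p = 0.778). IFITM3, an antiviral membrane protein gene, was at the minimum height of 3 in all silenced KYSE150 libraries and in 2 of their controls (shared change -0.44 ± 0.33, limma adjusted p = 0.824).

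Cell cycle genes had a kept region at 23 of 30, with 11 higher and 12 lower. PLK1, a mitotic kinase gene, had 10, 7 and 8 against 4, 5 and 3 in KYSE150 and 11, 14 and 14 against 8, 13 and 11 in KYSE510, without overlap in KYSE150 only (shared change -0.68 ± 0.21, limma adjusted p = 0.433). CDC20, an activator of the anaphase-promoting complex, had a difference of -0.91 ± 0.39 (limma adjusted p = 0.844). Among 8 of 24 epithelial-mesenchymal genes 5 were higher and 3 lower. CLDN4, a tight junction gene, had 14, 17 and 24 against 17, 9 and 8 in KYSE150 and 32, 28 and 19 against 15, 13 and 20 in KYSE510. Ranks there were apart in KYSE510 only (shared change -0.64 ± 0.22, limma adjusted p = 0.508).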

How the data were processed

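ATAC-seq peak lists of 12 libraries were used, 1 list per library. Per the submitters' processing notes, Trimmomatic 0.36, Bowtie2 2.2.6, Picard 2.8.2, MACS2 2.1.1 and bedtools 2.25.0 were named with the build GRCh38, without roles or order. Per the file headers, the authors deposited for each peak a Pileup, a signal in whole numbers that is the peak height and is not normalised between libraries, a fold enrichment, which is a ratio to the local background, and an FDR derived from a p-value. Read totals are not given in the sources used here, so ranks within a library were compared.

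Regions were merged, ranked and turned into normal scores with Python 3.11.15, numpy 2.4.6, pandas 2.3.3 and scipy 1.17.1. They were fitted with limma 3.58.1 in R 4.3.3 (lmFit, contrasts.fit and eBayes on 4 group means), with Benjamini-Hochberg adjustment over all 20785 regions and a threshold of 0.05. Single values per library were tested by two-sided exact permutation within lines, over 20 relabellings for 1 line and 400 for both. Figures were drawn with matplotlib 3.10.9. The fit was tested on simulated Poisson counts with planted changes. For the shared change it recovered 35% of 100 planted 2-fold and 91% of 100 planted 3-fold changes. With changes of opposite direction in the lines it recovered 50% at 2-fold and 90% at 3-fold. A region without a call can therefore still have changed 2-fold. Labels do not say whether replicates were separate cultures, so p-values measure only the spread between these libraries.

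Gene starts came from RefSeq (GRCh38.p14) for 15812 protein-coding genes with a known strand, and either end was used for 4158 others. Regions were named by this rule: for each contrast and class the 4 with the smallest limma p in each direction, the regions at UTP3, VAMP3, HCP5 and MYC, and from each gene list the promoters with the largest absolute shared change and difference. Some regions under this rule are not reported here. A distal region carries the name of the nearest gene start, which does not make that gene its target. The further regions called with trend and robust options were named after their values were seen. The members and lists were chosen with earlier results of these data known. Replicate numbers were not taken as pairs, since 1 of 6 same-number correlations of deviations exceeded 0.1. In all 6 cases the best correlation was still that with the own number, so a replicate block was fitted as an alternative. Alternatives changed the height minimum, the overlap, the ranked value, the scale, the limma options, the promoter rule and the libraries included.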

Additional observations from a re-analysis of the deposited data

How the results depend on the processing

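The number of regions called for the shared change was 1, and it was 0 with fold enrichment ranked in place of Pileup, 0 with a minimum Pileup of 5 (13655 regions), 2 with an FDR of at most 0.05, 3 with plain percentiles, 2 with log2 Pileup minus the library median, 9 with limma's trend and robust options, 6 with the trend option alone, 1 with the robust option alone and 0 to 2 with 1 library left out. It was 1 with ranks taken within class. The single options and the ranks within class were chosen after seeing the data. The difference between lines had 0 calls under every alternative. With fold enrichment ranked, the change of the promoter balance in KYSE150 was 0.230 points and the shared change at the first MYC region -0.0402. With 1 library left out the KYSE150 balance ranged from -2.02 to 1.56 points, and the difference at UTP3 from -0.0934 (without silenced KYSE150 replicate 1) to 0.718. The causes were not tested. Low heights limit precision: a kept region has a height of at least 3 in each library and could not be lower there.

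With a replicate block, 0 regions were called for the shared change (adjusted p = 0.199 at the region near BCL11B) and 0 for the difference. At an unadjusted p under 0.05 the limma count for the shared change was 1729 with the block and 1536 without. Same-number correlations of deviations were low, at 0.02 to 0.15, but each library correlated best with its own number in 6 of 6 cases. Whether equal numbers mark a shared culture or batch was not tested. The promoter balance under the block had exact permutation p of 0.156 for the shared change and 0.188 for the difference, with 0.0312 the smallest possible.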

Other observations

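Within a line, the promoter balance of a library was set beside its GC balance, the mean percentile of promoters above the median GC content (65.3%) minus that of the promoters below. Over 6 KYSE150 libraries Pearson's r was 0.944 (exact permutation p = 0.0167, adjusted p = 0.0667 over 4 values) and Spearman's rho 0.771 (exact permutation p = 0.103, adjusted p = 0.206), and r was 0.797 without the 2 libraries farthest from the median GC balance. Over 6 KYSE510 libraries r was 0.540 (exact permutation p = 0.258, adjusted p = 0.344) and rho 0.257 (exact permutation p = 0.658, adjusted p = 0.658), and without the 2 farthest libraries r was -0.07, so the KYSE510 relation rests on those 2. The values are given without an explanation.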
